A study of Mus musculus with 6 samples.

Results

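The 10 genes described here are Nfkbia, Nfkb1, Nfkb2, Relb, Tnfaip3, Il6, Lif, Il1rl1, Icam1 and Vcam1, a named list of genes of the NF-kB pathway, cytokines and their receptors, and leukocyte adhesion molecules. All 10 were found by symbol among the 55487 gene identifiers of the count table, and all 10 were among the 19015 genes with enough counts to be tested. They were read in primary cells from the skin of C57BL/6 mice aged 2–3 months, isolated from 4–6 mice at a time with CD31 microbeads (CD31, or Pecam1, is an endothelial surface protein) and labelled as endothelial cells. The cells were kept for 48 hours in medium with normal glucose (5 mmol/L, 3 samples) or high glucose (20 mmol/L, 3 samples), and polyadenylated RNA was sequenced. For this sequencing the paper's captions state n = 3 per group of mice. The labels do not say whether the 3 samples of a group came from separate isolations. The p-values therefore set the difference between the groups against a spread between these samples that may be technical. No osmotic control was analysed here, so glucose and osmolarity cannot be told apart.

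Levels are given as CPM, the count of a gene relative to the total of its library after scaling by the trimmed mean of M-values (TMM), and changes as log2 fold changes of high over normal glucose with the standard error (SE) of edgeR's quasi-likelihood fit. A gene was called when its Benjamini-Hochberg adjusted p over all tested genes was under 0.05. The library totals were 120192466 to 146881356 counts, and the smallest count of any of the 10 genes in any sample was 920. In bulk RNA, fewer cells of a type and less RNA per cell cannot be told apart. The endothelial label was not borne out by most of the markers. Pecam1 stood at 0.128 ± 0.0378 CPM in normal glucose and 0.103 ± 0.0359 CPM in high glucose (SD, n = 3 each), and 4 of 14 endothelial markers (Tie1, Emcn, Cldn5 and Robo4) had at most 9 counts in any sample. The summed level of 12 fibroblast markers, of which Col3a1, Col1a2 and Col1a1 were the largest, was 43470–46513 CPM in normal glucose and 76707–81809 CPM in high glucose. The endothelial markers summed to 74.3–77.7 and 57.7–58.5 CPM, most of it from Flt1. Of the 10 that were tested, 2 were called higher (Tek, and Erg at 0.0373 and 0.106 CPM). Flt1, Cdh5 and Egfl7 were called lower and 5 were not called. Over all tested genes, 16.9% were called higher and 14.5% lower.

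NF-kB is a family of dimeric transcription factors that rests in the cytoplasm, held there by I-kappa-B proteins. Signals from receptors for TNF, IL-1 or bacterial products activate the I-kappa-B kinase complex (IKK), the I-kappa-B protein is degraded, and the freed dimer enters the nucleus and switches on cytokines, adhesion molecules and its own inhibitors. Because Nfkbia (I-kappa-B alpha), Tnfaip3 (the ubiquitin-editing enzyme A20) and the subunit genes Nfkb1, Nfkb2 and Relb are themselves NF-kB targets, their RNA is widely used as a sign of feedback within the pathway. In activated endothelium the same pathway is known to raise Icam1 and Vcam1, which hold leukocytes to the vessel wall.

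The kappaB consensus is the sequence that NF-kB dimers are known to bind, and the promoter stretches that held it are shown to set the 10 genes beside the pathway's own motif. RefSeq promoter windows (GRCm38.p6, 250 bases before to 50 after a start site) were matched by symbol for 7 of the 10 genes, not for Nfkb1, Relb and Vcam1. The motif searched, on both strands, was 3 G, a purine, 2 bases of any kind, 2 pyrimidines and 2 C. It is close to its own reverse complement, so that a single site often matches on both strands. It was found in 5 of the 7 genes, against 9.55% of 27025 genes, and in 7 of their 11 windows, against 8.46% of 32851 windows. Several of these genes are known NF-kB targets, so the figures describe the list and do not test an enrichment. The stretches below read 5′ to 3′ on the gene's strand and lie before a RefSeq start site, and capitals mark the matches.
Nfkbia, chr12:55492648-55492727, minus strand: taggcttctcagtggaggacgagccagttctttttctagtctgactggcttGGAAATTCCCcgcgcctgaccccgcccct
Nfkb2, chr19:46304657-46304736, plus strand: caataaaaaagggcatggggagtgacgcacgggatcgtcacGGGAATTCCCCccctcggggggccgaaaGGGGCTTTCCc
Tnfaip3, chr10:19015411-19015560, minus strand: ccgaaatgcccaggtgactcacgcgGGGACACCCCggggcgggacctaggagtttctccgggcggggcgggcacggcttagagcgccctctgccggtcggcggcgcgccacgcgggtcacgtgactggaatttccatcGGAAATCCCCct
Il6, chr5:30013034-30013113, plus strand: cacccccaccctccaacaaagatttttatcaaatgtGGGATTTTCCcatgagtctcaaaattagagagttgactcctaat
Lif, chr11:4257368-4257427, plus strand: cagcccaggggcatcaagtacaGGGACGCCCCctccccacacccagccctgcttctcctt

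In the stretches shown, the Nfkbia, Nfkb2 and Il6 matches lay within 80 bases of the start, at −29 for Nfkbia, at −39, −38 and −11 for Nfkb2 and at −44 for Il6, counted to the first base of the match. The windows of other Nfkb2 starts, which are not shown, held matches at −236 and 11 from one start and at −225 from another. The matches at 11 and −225 are the same site in overlapping windows, so that it counted in both. Tnfaip3 had a match at −12 and another at −125, and the Lif match lay farther out, at −178. The Nfkb2 and Tnfaip3 stretches lie inside the span that GENCODE gives to the whole gene, since longer transcripts start upstream of them. The windows of Il1rl1 and Icam1 held no match, which says only that these letters are not in those windows. A match of letters is a description and not a bound site.

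Of the 10 genes, 5 were called higher in high glucose (Nfkbia, Nfkb1, Nfkb2, Relb and Il6), 3 were called lower (Lif, Il1rl1 and Icam1) and 2 were not called (Tnfaip3 and Vcam1). Over all tested genes, 16.9% were called higher and 14.5% were called lower. The 3 normal and the 3 high glucose samples did not overlap for 9 of the 10 genes, 6 of them higher and 3 lower, where 25.1% of all tested genes did not overlap and were higher and 21.3% did not overlap and were lower. The median log2 fold change of the 10 genes was 0.17, beside 0.0062 over all tested genes. The 10 genes and the pathway and marker lists were chosen with earlier results of these data in view. These counts, and those given for the lists, therefore describe the lists and no more. The changes spanned a wide range, from Il1rl1 at the 1.68th percentile of all log2 fold changes to Il6 at the 98.8th. The counts depended on the scaling, since 3 genes were called higher and 3 lower with upper quartile normalization, and 3 higher and 4 lower with scaling by library size.

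**Figure D1:**
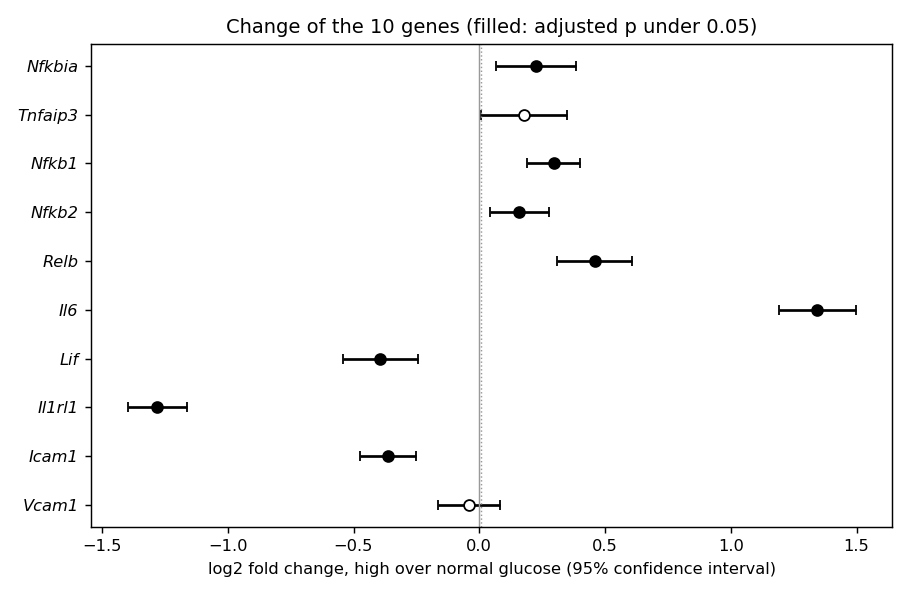
Log2 fold change of each of the 10 genes, high over normal glucose, with its 95% confidence interval from edgeR's quasi-likelihood fit (3 samples in each group). Filled points passed an adjusted p of 0.05, and the dotted line marks the median of all tested genes. Il6 at 1.34 and Il1rl1 at −1.28 stand far from the other 8 genes, which lie between −0.39 and 0.46.

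The inhibitors of the pathway among the 10 genes, Nfkbia and Tnfaip3, had log2 fold changes of 0.22 and 0.18, of which the first was called. Nfkbia (ENSMUSG00000021025, chr12:55489410-55492647, minus strand, GRCm38) encodes the I-kappa-B protein that is rapidly resynthesised after NF-kB is activated. Its levels were 48.4, 40.0 and 43.9 CPM in normal glucose and 50.9, 49.8 and 53.8 CPM in high glucose. The high glucose samples were all above the normal ones, but normal replicate 1 lay within 1.46 CPM of the lowest of them. The mean went from 44.1 ± 4.19 to 51.5 ± 2.06 CPM (SD, n = 3), which gave a log2 fold change of 0.22 (SE 0.0712, edgeR adjusted p = 0.0357), or 16.9%. Without normal replicate 1 the log2 fold change was 0.28 (edgeR adjusted p = 0.0034). Leaving out normal replicate 2 or 3 or any 1 of the high glucose replicates ended the call, with log2 fold changes of 0.15 to 0.23 and adjusted p of 0.0734 to 0.179.

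Tnfaip3 (ENSMUSG00000019850, chr10:19000910-19015657, minus strand) encodes A20, which removes activating ubiquitin chains from adaptors of the pathway. It was the lowest of the 10 genes per length of transcript. Its levels were 7.35, 8.35 and 8.36 CPM in normal glucose and 8.98, 8.99 and 9.24 CPM in high glucose. The groups did not overlap, but the difference did not pass the test (log2 fold change 0.18, 95% confidence interval 0.0049 to 0.35, edgeR adjusted p = 0.109).

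The subunit genes gave 3 calls of unequal size. Nfkb1 (ENSMUSG00000028163, chr3:135584655-135691547, minus strand) encodes p105, the precursor of the p50 subunit of the classical dimer. Its levels were 96.2, 96.6 and 98.2 CPM in normal glucose and 117, 121 and 119 CPM in high glucose, so that the gap of 18.8 CPM between the groups was 9.29 times the larger of their SDs. The mean rose from 97.0 ± 1.04 to 119 ± 2.03 CPM (SD, n = 3), which gave a log2 fold change of 0.30 (SE 0.0472, edgeR adjusted p = 0.00091).

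Relb (ENSMUSG00000002983, chr7:19606217-19629438, minus strand) encodes the activating partner of p52 in the non-canonical dimer and had the largest change of the 3 subunit genes. Its levels were 18.5, 17.5 and 19.7 CPM in normal glucose and 26.7, 23.6 and 26.2 CPM in high glucose. All 3 high glucose samples were above all normal ones, with a mean of 25.5 ± 1.65 against 18.6 ± 1.11 CPM (SD, n = 3) and a log2 fold change of 0.46 (SE 0.0675, edgeR adjusted p = 0.000535).

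Nfkb2 (ENSMUSG00000025225, chr19:46304320-46312385, plus strand) encodes p100, which acts as an inhibitor until it is processed to p52. Its levels were 58.6, 56.6 and 60.1 CPM in normal glucose and 67.5, 62.6 and 65.7 CPM in high glucose. The groups did not overlap, and the log2 fold change of 0.16 (SE 0.0526) was just past the threshold (edgeR adjusted p = 0.0423). Leaving out any 1 of the 6 libraries ended the call, with log2 fold changes of 0.12 to 0.17 and adjusted p of 0.0586 to 0.239. Nfkb2 also shares 299 exonic bases with Psd and 531 with AC114539.1 on the opposite strand, with 1270–1923 and 263–470 counts per sample, and the counting is not stated to have used strand.

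**Figure D2:**
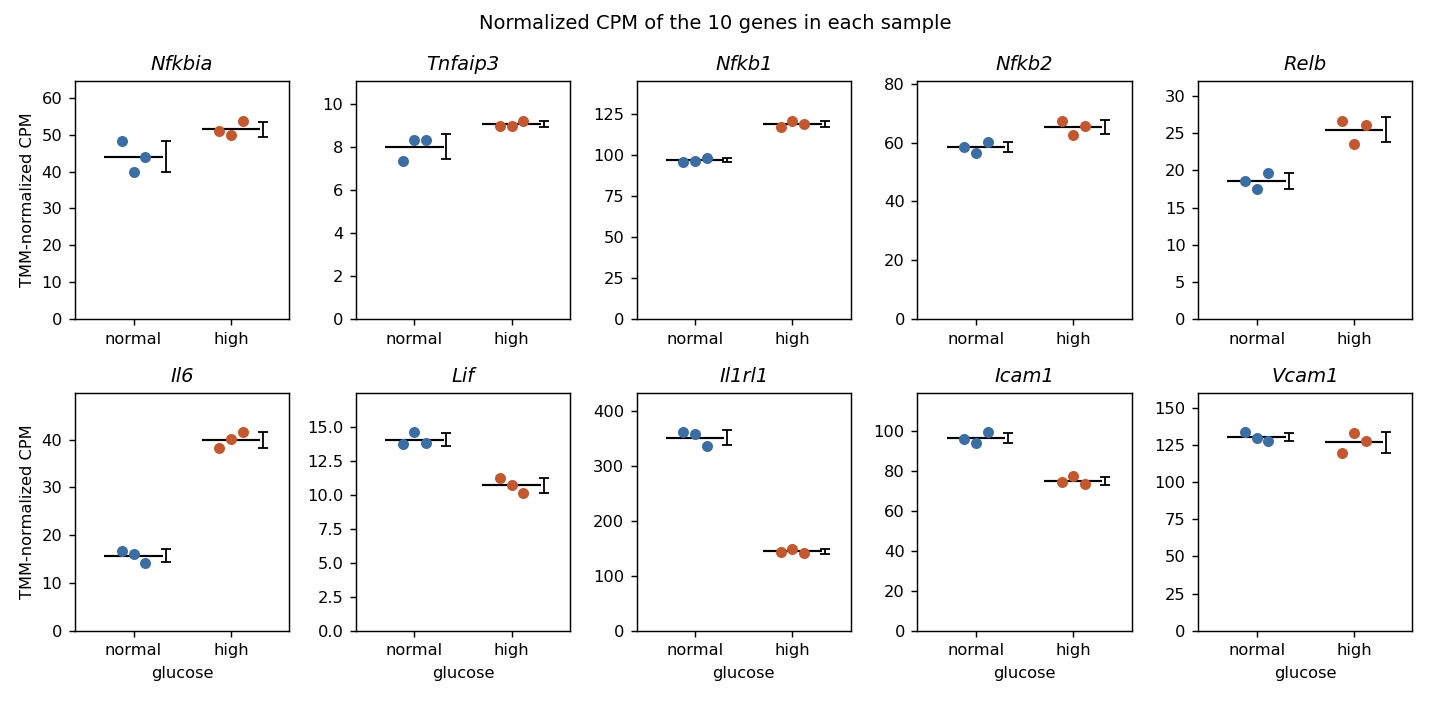
TMM-normalized CPM of each of the 10 genes in the 3 normal and 3 high glucose samples, one panel per gene with its own axis, with points for samples, a line for each group mean and a bar beside it for the SD. The groups are apart in 9 panels and overlap for Vcam1, and the gap is widest beside the larger of the SDs for Il1rl1 and Il6.

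The other subunit genes did not pass the test. Rela (p65, the main activating subunit) had a log2 fold change of 0.15 (edgeR adjusted p = 0.103) and Rel of −0.06 (adjusted p = 0.682). Of 5 other I-kappa-B genes, 2 (40%) were called higher and none lower, with a list median of 0.13. The shares over all tested genes were 16.9% higher and 14.5% lower. Nfkbiz, a nuclear I-kappa-B protein and the most abundant of the 5 in CPM, stood at 97.0 ± 2.26 CPM in normal and 88.4 ± 1.02 CPM in high glucose (SD, n = 3), with no overlap. Its log2 fold change of −0.13 did not pass the test (edgeR adjusted p = 0.0584), but it was called lower in 9 of 20 alternatives, among them DESeq2 (−0.15, adjusted p = 0.0339), and without normal replicate 1 (−0.16, adjusted p = 0.0207). Nfkbie (I-kappa-B epsilon) rose by 0.44 (adjusted p = 0.000516) from 9.56 to 13.0 CPM, and Bcl3, a nuclear I-kappa-B protein that partners p50 and p52, rose by 0.40 (adjusted p = 0.000339) from 47.7 ± 2.2 to 63.1 ± 2.22 CPM (SD, n = 3). Of 11 IKK and upstream kinase genes, 3 (27.3%) were called higher and none lower, with a median of 0.12. Map3k8, a kinase kept in check by p105, rose by 0.35 (edgeR adjusted p = 0.00285). The other calls were the IKK subunit Ikbkg (0.21, adjusted p = 0.0221) and the IKK-related kinase Ikbke (0.20, adjusted p = 0.045), which were called in only 2 and 1 of the 6 fits that left out a library.

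Of 13 tested genes of ubiquitin editing and RNA decay, which restrain the pathway, 3 (23.1%) were called higher and 1 (7.69%) lower, with a median of 0.15. Over all tested genes these shares were 16.9% and 14.5%. Tnip1, which helps A20 to act, rose by 0.57 (edgeR adjusted p = 5.98e-05) from 45.2 ± 3.18 to 67.0 ± 1.74 CPM (SD, n = 3). Zc3h12a, the RNase regnase-1 that degrades Il6 and other cytokine transcripts, rose by 0.46 (adjusted p = 6.12e-05) from 34.1 ± 0.863 to 46.8 ± 0.568 CPM (SD, n = 3). Rnf11, a member of the A20 complex, fell by 0.29 on the log2 scale (edgeR adjusted p = 0.00762). Among 22 receptor and adaptor genes, 8 (36.4%) were called higher and 4 (18.2%) lower, with a median of 0.12. Irak3, the IRAK family member that restrains signals of IL-1 and Toll-like receptors, rose by 0.59 (adjusted p = 3.04e-05) from 56.0 ± 3.33 to 84.5 ± 2.15 CPM (SD, n = 3), and the adaptor Myd88 rose by 0.34 (adjusted p = 0.000501).

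The 4 receptor and adaptor genes called lower were Il1rap, described beside Il1rl1, and 3 genes of low level. Cd40, a TNF-receptor family member that signals to the non-canonical pathway, had the largest change of the list and fell by 1.71 on the log2 scale (edgeR adjusted p = 0.000323) from 0.825 ± 0.0899 to 0.250 ± 0.0816 CPM (SD, n = 3). The adaptor Traf1 had a log2 fold change of −0.78 (edgeR adjusted p = 0.0172), from 0.801 to 0.466 CPM, and lost its call without high glucose replicate 1 (−0.78, adjusted p = 0.052) or 2 (−0.72, adjusted p = 0.0574). Tnfrsf11a (RANK) had one of −0.81 (edgeR adjusted p = 0.0453), from 0.273 to 0.155 CPM. It was called in only 1 of the 6 fits that left out a library, with values of −0.98 to −0.73 in the other 5.

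Il6 (ENSMUSG00000025746, chr5:30013114-30019981, plus strand), the secreted cytokine of the acute-phase response, rose most of the 10 genes. Its levels were 16.8, 16.2 and 14.3 CPM in normal glucose and 38.2, 40.3 and 41.5 CPM in high glucose, from 1830–2292 and 4680–5599 counts per sample. The lowest high glucose sample was 21.4 CPM above the highest normal one. The mean rose from 15.8 ± 1.3 to 40.0 ± 1.7 CPM (SD, n = 3), which gave a log2 fold change of 1.34 (SE 0.0693, edgeR adjusted p = 3.85e-07), which is 2.54-fold with a 95% confidence interval of 2.28 to 2.82.

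Lif (ENSMUSG00000034394, chr11:4257557-4272514, plus strand), a cytokine of the same family that signals through the same gp130 chain, fell. Its levels were 13.7, 14.6 and 13.8 CPM in normal glucose and 11.3, 10.7 and 10.1 CPM in high glucose, with no overlap between the groups. The mean went from 14.0 ± 0.462 to 10.7 ± 0.562 CPM (SD, n = 3), which gave a log2 fold change of −0.39 (SE 0.0675, edgeR adjusted p = 0.00144). Per kilobase of longest transcript, Il6 went from 6.72 to 17.1 CPM while Lif went from 3.49 to 2.66 CPM.

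Around these ligands, 8 of 17 tested genes (47.1%) of the IL-6 family and its signalling were called higher and 1 (5.88%) lower. Their median log2 fold change was 0.19. Of all tested genes, 16.9% were called higher and 14.5% lower. Il6st (gp130, the shared signalling chain) rose by 1.24 (edgeR adjusted p = 1.07e-06) from 824 ± 88.1 to 1954 ± 34.4 CPM (SD, n = 3). Lifr, which pairs with gp130 to bind Lif, rose by 0.77 (edgeR adjusted p = 7.85e-06) from 18.9 ± 1.37 to 32.2 ± 0.129 CPM (SD, n = 3), in the direction opposite to its ligand. Il6ra, which binds Il6 itself, did not pass the test (log2 fold change 0.14, edgeR adjusted p = 0.0568), and its value was −0.026 after a trend with GC content and length was removed.

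Cntfr, the receptor of a related cytokine, rose by 1.54 (edgeR adjusted p = 1.29e-06) from 2.30 to 6.68 CPM. Il11, another ligand that uses gp130, fell by 0.66 on the log2 scale (adjusted p = 0.000133). Downstream of the receptors, Jak2 rose by 0.51 (adjusted p = 0.000182) and the feedback inhibitor Socs3 by 0.28 (adjusted p = 0.00689), which was 0.17 and not called with scaling by library size (adjusted p = 0.0595). The transcription factor Stat3 had a log2 fold change of 0.19 (edgeR adjusted p = 0.0183), a call that was lost without any 1 of the 3 high glucose samples (0.16 to 0.18, adjusted p of 0.0687 to 0.121).

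**Figure D3:**
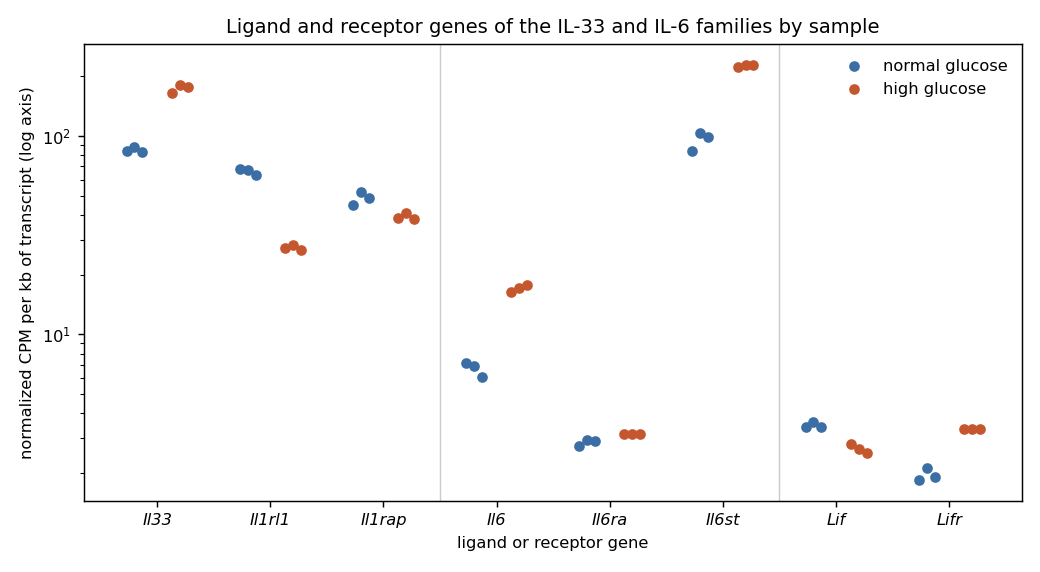
TMM-normalized CPM per kilobase of longest transcript, on a log axis, of Il6, Lif and Il1rl1 and of the ligand and receptor genes they work with, with a point for each of the 3 normal (blue) and 3 high (red) glucose samples. Il6 and Il6st are higher in high glucose while Lif is lower and Lifr higher, and Il1rl1 is lower while Il33 is higher.

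Il1rl1 (ENSMUSG00000026069, chr1:40429570-40465415, plus strand) encodes ST2, the receptor of the alarmin IL-33, which pairs with Il1rap to signal to NF-kB and is also made as a soluble decoy. It fell most of the 10 genes. Its levels were 362, 358 and 336 CPM in normal glucose and 144, 149 and 142 CPM in high glucose, from at least 17380 counts in every sample. The highest high glucose sample was at 44.5% of the lowest normal one. The mean went from 352 ± 13.9 to 145 ± 4.08 CPM (SD, n = 3), which gave a log2 fold change of −1.28 (SE 0.0532, edgeR adjusted p = 1.02e-07), or a decrease by 58.8%. The gene-level counts do not separate the membrane from the soluble form.

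The partners of Il1rl1 went different ways. Il33, its ligand, rose by 1.04 (edgeR adjusted p = 5.46e-07) from 215 ± 6.96 to 441 ± 22 CPM (SD, n = 3). Il1rap, the accessory chain that it shares with the IL-1 receptor, fell by 0.31 on the log2 scale (edgeR adjusted p = 0.00429) from 219 ± 17 to 176 ± 6.47 CPM (SD, n = 3). Il1rn, the secreted antagonist of the IL-1 receptor, rose by 0.92 (edgeR adjusted p = 7.89e-07) from 225 ± 6.59 to 425 ± 15.9 CPM (SD, n = 3). In the list of IL-33 and IL-1 receptor family genes, 3 of 8 tested genes (37.5%) were called higher and 1 (12.5%) lower, with a median of 0.26. The shares over all tested genes were 16.9% higher and 14.5% lower.

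Il1rl1 sits in a cluster of receptor genes on chromosome 1, all on the plus strand, and its neighbours moved in both directions. Upstream, Il1r1 (chr1:40225080-40317257), the signalling receptor of IL-1, rose by 0.53 (edgeR adjusted p = 4.88e-05) from 483 ± 23.4 to 699 ± 24 CPM (SD, n = 3). Il1rl2 (chr1:40324610-40367562), the receptor of IL-36, rose by 0.40 (adjusted p = 0.00125) from 68.0 ± 6.12 to 89.8 ± 1.82 CPM (SD, n = 3). Il1r2 (chr1:40074079-40125231), a decoy receptor, had a log2 fold change of −0.16 (edgeR adjusted p = 0.15). Downstream, Il18r1 (chr1:40465552-40500854) starts 136 bases from the end of Il1rl1 and was too low to be tested, at 8, 15 and 11 counts in the normal samples against 9, 2 and 0 in the high glucose samples. Il18rap (chr1:40515362-40551705), the accessory chain of the IL-18 receptor, fell by 2.45 on the log2 scale (edgeR adjusted p = 7.22e-06) from 4.43 ± 0.512 to 0.815 ± 0.247 CPM (SD, n = 3).

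ST2 is also known from mast cells and from other leukocytes, so their markers were read beside it. The summed level of 10 mast cell and basophil markers was 14.0–15.0 CPM in normal glucose and 7.41–8.08 CPM in high glucose. Most of this difference was Mcpt8, while Gata2 went from 7.32 to 6.49 CPM and was not called (edgeR adjusted p = 0.127). Of these 10 markers 4 were tested, the basophil protease Mcpt8 fell by 2.80 on the log2 scale (edgeR adjusted p = 6.75e-08) from 6.65 to 0.952 CPM, and the defining markers Fcer1a, Tpsb2 and Mcpt4 had 0 counts in all 6 samples. The summed level of 12 leukocyte markers was 17.8–20.0 CPM in normal glucose and 27.6–28.4 CPM in high glucose. Of the 6 tested, 2 (33.3%) were called higher and 2 (33.3%) lower, beside 16.9% and 14.5% of all tested genes. The higher sum followed Cd14, a co-receptor for bacterial lipopolysaccharide, which went from 9.47 to 21.1 CPM. The other marker called higher was Cd74, from 0.281 to 0.615 CPM (log2 fold change 1.13, edgeR adjusted p = 0.00298). Csf1r, the receptor of the macrophage growth factor, went from 5.62 to 3.38 CPM (log2 fold change −0.73, edgeR adjusted p = 0.00102) and Cd68 from 1.46 to 1.06 CPM (−0.46, adjusted p = 0.0463). Defining markers were nearly absent, with Cd3e and C1qb at 0 in all samples and Ptprc, the common leukocyte antigen, at 16 counts in 1 normal glucose sample and 0 in the other 5. The part of other cell types in the change of Il1rl1 was not tested.

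The adhesion molecules divided. Icam1 (ENSMUSG00000037405, chr9:21015985-21028817, plus strand), the ligand of leukocyte beta-2 integrins, fell. Its levels were 96.2, 94.2 and 99.4 CPM in normal glucose and 74.3, 77.5 and 73.7 CPM in high glucose, with all high glucose samples below all normal ones. The mean went from 96.6 ± 2.63 to 75.2 ± 2.06 CPM (SD, n = 3), which gave a log2 fold change of −0.36 (SE 0.0503, edgeR adjusted p = 0.000368), or a decrease by 22.2%. An annotated gene on the opposite strand, Gm47079, shares 511 exonic bases with Icam1 but had at most 33 counts in any sample.

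Vcam1 (ENSMUSG00000027962, chr3:116109949-116129688, minus strand), the ligand of the integrin alpha-4 beta-1, showed no difference beyond the spread. Its levels were 133, 129 and 128 CPM in normal glucose and 119, 133 and 127 CPM in high glucose, and the groups overlapped (two-sided exact permutation test p = 0.4, with 0.1 the smallest p that 3 samples against 3 allow). The log2 fold change was −0.04 with a 95% confidence interval of −0.163 to 0.081 (edgeR adjusted p = 0.611). Under scaling by library size it was −0.16 and was called (edgeR adjusted p = 0.0437), a setting that moved the median of all tested genes by −0.115.

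Of 14 other adhesion genes that were tested, 1 (7.14%) was called higher and 7 (50%) were called lower, with a median log2 fold change of −0.17. Of all tested genes, 16.9% were called higher and 14.5% lower. Cd34, a sialomucin of vessels and of stromal progenitors, fell by 0.99 on the log2 scale (edgeR adjusted p = 2.99e-07) from 90.3 to 45.3 CPM, and Alcam, a homophilic adhesion molecule, fell by 1.05 (adjusted p = 1.91e-06). Cd44, the hyaluronan receptor, fell by 0.45 (adjusted p = 0.00013) from 338 to 248 CPM. Jam2 fell by 0.32 and F11r by 0.58, both junctional molecules, and Mcam (CD146) fell by 0.34 on the log2 scale. The exception was Nectin2, with a log2 fold change of 0.24 (edgeR adjusted p = 0.0051). With scaling by library size it was 0.12 and not called (adjusted p = 0.0713), which left 0 of the 14 genes called higher and 9 lower. That scaling gave 1819 higher and 4884 lower calls over all tested genes. Sele (E-selectin), a classical NF-kB target of endothelium, was too low to be tested, at 0, 6 and 0 counts in the normal samples against 5, 0 and 2 in the high glucose samples.

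NF-kB target genes outside the 10 also moved both ways. Of 18 listed genes 13 were tested, of which 7 (53.8%) were called higher and 5 (38.5%) lower, with a median log2 fold change of 0.39. All tested genes together gave 16.9% higher and 14.5% lower. Sod2, the mitochondrial superoxide dismutase, rose by 0.56 (edgeR adjusted p = 1.47e-05) from 280 ± 6.79 to 411 ± 6.88 CPM (SD, n = 3), and Nos2, the inducible nitric oxide synthase, rose by 1.89 (edgeR adjusted p = 7.62e-07) from 1.49 ± 0.107 to 5.51 ± 0.453 CPM (SD, n = 3). Selp (P-selectin), a leukocyte adhesion receptor near the detection limit, rose by 1.28 (edgeR adjusted p = 0.00899) from 0.0913 to 0.223 CPM. Ptgs2 (COX-2) fell by 1.28 on the log2 scale (edgeR adjusted p = 1.94e-07) from 43.4 ± 2.78 to 17.9 ± 0.244 CPM (SD, n = 3). Csf1, the macrophage growth factor, fell by 0.64 (edgeR adjusted p = 5.66e-06) from 1243 ± 35.6 to 796 ± 7.16 CPM (SD, n = 3). The ligands that classically start the pathway gave little signal. Tnf and Il1b were too low to be tested, with Il1b at 0 counts in all samples. Il1a, also of low level, fell by 1.26 on the log2 scale (edgeR adjusted p = 0.00971) from 0.252 to 0.106 CPM.

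Over the 9 pathway lists together, 105 of 116 genes were tested, with a median log2 fold change of 0.12. Of these, 35 (33.3%) were called higher, 19 (18.1%) lower and 51 were not called. Of all tested genes, 16.9% were called higher and 14.5% lower, so the lower share of the lists was near that of all genes. Beside these lists, 10 of 12 fibroblast markers were called higher in high glucose and 1, Thy1, was called lower (1878 to 1419 CPM). Their summed level did not overlap between the groups. Its largest parts were the collagen genes Col3a1 (12421 to 32515 CPM), Col1a2 (10558 to 14743 CPM) and Col1a1 (7771 to 13140 CPM). Of 9 tested mural cell markers, 2 were called higher and 5 lower. The part of these marker differences in the changes of the 10 genes and of the lists was not tested.

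**Figure D4:**
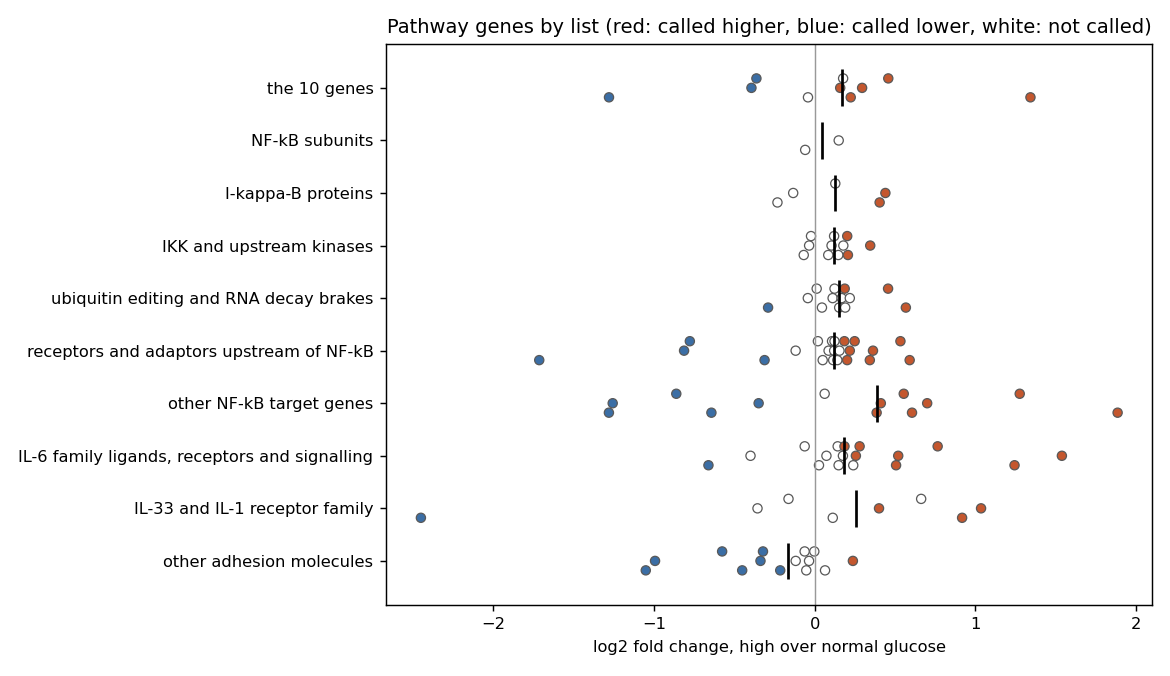
Log2 fold change of every tested gene (points) of the 9 pathway lists and of the 10 genes, with the list median as a black bar, genes called higher in red, genes called lower in blue and genes not called in white. The medians run from −0.17 for other adhesion molecules to 0.39 for other NF-kB target genes, and every list holds genes on both sides of 0.

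The order of the 10 genes by level was compared per kilobase of the longest annotated transcript. In normal glucose it ran from Il1rl1 (66.4 CPM per kb) through Icam1 (38.1), Vcam1 (31.8), Nfkbia (27.9), Nfkb1 (23.4), Nfkb2 (15.2), Il6 (6.72), Relb (5.67) and Lif (3.49) to Tnfaip3 (1.29), and the samples of neighbouring genes did not overlap anywhere in this order. In high glucose Nfkbia (32.6 CPM per kb), Vcam1 (31.0), Icam1 (29.7) and Nfkb1 (28.7) came first. The samples of the first 3 overlapped with those of the next gene down. Nfkb1 and Il1rl1 nearly met, with the lowest Nfkb1 sample at 28.20 and the highest Il1rl1 sample at 28.19 CPM per kb. Il1rl1 went from place 1 to place 5 at 27.3 CPM per kb, and Il6 went from place 7 to place 6 at 17.1, where it overlapped with Nfkb2 at 17.0. Relb (7.79), Lif (2.66) and Tnfaip3 (1.46 CPM per kb) kept the last 3 places without overlap. Per kilobase, the I-kappa-B alpha transcript thus stood above the ST2 transcript in high glucose and below it in normal glucose. In CPM without the length, Il1rl1 stood above Nfkbia in both groups, at 145 against 51.5 CPM in high glucose. The order rests on the longest transcripts, of 1.58 kb for Nfkbia and 5.30 kb for Il1rl1. Shorter transcripts, such as that of the soluble form, were not separated.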

How the data were processed

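The authors deposited 1 table of read counts per gene for the 6 samples. Per the labels, Trimmomatic, HISAT2, StringTie and edgeR were used with GRCm38. Their versions, the annotation release and the use of strand are not given in the sources used here. Columns named Control were taken as normal glucose and Hi-Glu as high glucose, by replicate number.

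Gene symbols came from GENCODE mouse release M21 (55141 of 55487 identifiers). Genes were kept by filterByExpr (minimum count 10, minimum total 15), scaled by TMM and tested with edgeR 4.0.16 in R 4.3.3 (glmQLFit and glmQLFTest, no covariate, Benjamini-Hochberg over all genes kept, adjusted p under 0.05). The steps were tested on simulated data, drawn as independent samples at the means and dispersions fitted to these counts. Such data cannot show how the calls behave where replicates are technical. A level of 3 counts corresponds to 0.0204–0.0250 CPM, which covers counting error only. The TMM factors were 1.03–1.05 for normal and 0.954–0.966 for high glucose. Replicate libraries differed by more than sampling noise.

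The 10 genes, the pathway lists and the marker lists were chosen with earlier results of these data known. All 10 genes were named. Of each pathway list, the called genes with a log2 fold change of at least 1 in size were named, and of the other genes those that a sentence on the list needed. Alternatives were DESeq2 1.42.0, limma voom (limma 3.58.1), a likelihood ratio test, a robust fit, other scalings and filters, a stricter threshold, halved counts, GC and length trends (mgcv 1.9.3), a replicate block and leaving out each library. Promoter sequence came from RefSeq.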

Additional observations from a re-analysis of the deposited data

How the results depend on the processing

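Of the 10 genes, the calls of Nfkb1, Relb, Il6, Lif, Il1rl1 and Icam1 held in all 20 alternatives, with the direction of all 10 genes unchanged. Nfkb2 lost its call with DESeq2 (0.15), RLE normalization (0.15), upper quartile normalization (0.12), library size scaling (0.045), no filter on low counts (0.14), a filter of 1 CPM in 3 samples (0.14), an adjusted p under 0.01 (0.16), halved counts (0.14) and removal of a GC and length trend (0.098). Without 1 library each, its log2 fold change was 0.12 to 0.17. Nfkbia lost its call with upper quartile normalization (0.18), library size scaling (0.11), no filter (0.20) and an adjusted p under 0.01 (0.22), and its leave-one-out values were 0.15 to 0.28. Vcam1 was called at −0.16 with library size scaling. Of the 10 genes, 3 were called higher with upper quartile normalization, library size scaling, no filter or an adjusted p under 0.01, and 3 to 4 with a library left out. The cause of these losses was not tested.

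Of 44 other named genes of the pathway lists, 34 stayed on their side of the threshold in every alternative in which they were tested. Ikbkg, Ikbke, Traf1, Tnfrsf11a, Stat3, Socs3 and Nectin2 lost their call in at least 1 alternative, Nfkbiz and Il1r2 gained one, and only Il6ra reversed, to −0.026 without the GC and length trend and to −0.025 with the replicate block added. Over all tested genes, 3212 were called higher and 2757 lower (46.2% lower). This split was 2622 and 3407 (56.5% lower) with upper quartile normalization and 1819 and 4884 (72.9% lower) with library size scaling, which moved the median of all genes from 0.0062 to −0.109. An adjusted p under 0.01 gave 1946 and 1671, and leave-one-out fits 1988 to 3149 and 2048 to 3065.

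The replicate numbers shared by the groups did not pair the samples (correlations of deviations −0.025, 0.0038 and 0.013). With the replicate block, the calls of the 10 genes changed only for Nfkb2, at 0.16 (edgeR adjusted p = 0.0575) and at 0.098 with the GC and length trend also removed (adjusted p = 0.125).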
